A study of Mus musculus with 8 samples.

Results

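The 10 genes described here are *Tnf*, the gene of the inflammatory cytokine TNF, its receptor genes *Tnfrsf1a* and *Tnfrsf1b*, the related receptor genes *Tnfrsf12a* and *Fas*, and 5 genes that carry or restrain the death signal inside the cell, *Ripk1*, *Ripk3*, *Mlkl*, *Casp8*, and *Cflar*. They were chosen by name, with earlier results of these data known. They are the rows of the deposited tables that carry these symbols, and all 10 were found among 48709 genes. The data are bulk RNA-Seq of whole mouse pancreas, with 2 libraries in each of 4 groups. All mice were male and 8 weeks old, and tissue was taken 24 hours after modeling. WT mice received either normal saline or palmitoleic acid (POA) with ethanol, which gives an alcohol-related severe acute pancreatitis named FAEE-SAP after fatty acid ethyl esters. PFKFB3 cKO mice (*Pfkfb3* fl/fl; *Pdx1*-Cre) received the same treatments. In the FAEE-SAP model, saline was also injected before POA and ethanol, and the analgesic buprenorphine was given with the first injection, so these agents cannot be told apart from POA and ethanol. The *Pdx1* promoter drives Cre in the pancreatic lineage, so infiltrating immune cells keep an intact *Pfkfb3*. WT mice were bought, and littermate controls with the floxed allele or with Cre alone are not among the groups, so genotype and line cannot be told apart. The replicates are described as biological.

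TNF binds TNFR1, encoded by *Tnfrsf1a*, which most cells carry, and TNFR2, encoded by *Tnfrsf1b*, which is found mainly on immune and endothelial cells. At TNFR1 the kinase RIPK1 first joins a survival complex (complex I) that switches on NF-kB, and may then enter a death complex (complex II) with caspase-8. Caspase-8 starts apoptosis, and its relative c-FLIP, encoded by *Cflar*, restrains it. Where caspase-8 is not active, RIPK1 engages RIPK3, RIPK3 phosphorylates MLKL, and MLKL breaks the plasma membrane, a form of death called necroptosis. Acinar cell death in pancreatitis takes apoptotic and necrotic forms, and both are studied as determinants of severity.

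Levels are given as scaled RPKM, the deposited reads per kilobase of exon, set against library size, after the 8 libraries were brought to a common scale by the median of ratios, and both libraries of a group are given in the order of their replicate numbers. Differences are log2 fold changes of scaled RPKM + 0.1 from limma, each fitted and scaled within its own comparison over all genes. A gene was called where the Benjamini-Hochberg adjusted p was under 0.05 and the change at least 2-fold. With 2 libraries against 2, an exact two-sided permutation test cannot give a p under 0.33, so none was run. The smallest and largest library held 22.9 and 37.7 M reads.

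The libraries differed in make-up. The scaling factors were 1.94 to 2.02 in WT FAEE-SAP, 0.975 to 1.05 in cKO FAEE-SAP, and 0.621 to 0.866 with saline. The 7 acinar markers, the enzymes and transcription factors of the cells that make up most of the pancreas, were all called lower with FAEE-SAP in WT. Their summed scaled RPKM was 97255 to 107450 in WT saline, 25507 to 30015 in WT FAEE-SAP, 117367 to 133054 in cKO saline, and 61071 to 64505 in cKO FAEE-SAP. The 7 neutrophil markers summed to 1.33 to 2.25 in WT saline, 53.1 to 58.6 in WT FAEE-SAP, 1.22 to 3.68 in cKO saline, and 12.3 to 19.8 in cKO FAEE-SAP. The defining marker *Ly6g* was at 0 in all 4 saline libraries and in 1 cKO FAEE-SAP library, and *Mpo* was at 0 in both WT FAEE-SAP libraries. All 5 neutrophil markers tested were called higher with FAEE-SAP in WT, beside 6.93% of all genes called. With FAEE-SAP, 2 of 5 were called lower in cKO than in WT, beside 1.27%. Only 1 marker reached the minimum for testing, 0.5 RPKM in 2 libraries, between the saline groups. The others entered with FAEE-SAP libraries, where they were high, so their calls support nothing. The 6 macrophage markers found of 7 summed to 61.5 to 77.2 in WT saline and 57.6 to 81.8 in WT FAEE-SAP. They summed to 71.6 to 76.3 in cKO saline and 83.9 to 99.2 in cKO FAEE-SAP. With FAEE-SAP, 6 of the 6 had a higher estimate in cKO and 2 in WT, and 5 were higher in cKO than in WT. None was called in any comparison. The 5 islet markers summed to 242 to 285 in WT saline, 151 to 211 in WT FAEE-SAP, 265 to 323 in cKO saline, and 364 to 387 in cKO FAEE-SAP. Of these hormone genes, *Gcg* and *Sst* fell with FAEE-SAP in WT, *Sst* by 1.48 on the log2 scale, although *Gcg* was higher in the values as deposited, and both were called higher in cKO than in WT with FAEE-SAP (log2 1.68 and 1.80), whereas *Ppy* was called in neither, with log2 values of 0.47 and -0.38. Of the 4 adipocyte markers, 3 were tested with FAEE-SAP in WT. *Fabp4* was called higher (log2 1.21), whereas *Plin1* at 1.04 and *Adipoq* at -0.05 had overlapping libraries and were not called. The part of these cells in the values below was not tested. In bulk tissue, fewer cells of a type and less RNA per cell cannot be told apart. *Pfkfb3* itself was at 1.69 to 3.21 in WT and 0.880 to 2.82 in cKO libraries. Its level per gene does not test the deletion of floxed exons.

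*Tnf* was the weakest of the 10 genes in every group. Its scaled RPKM was 0.118 and 0.129 in WT saline and 0.591 and 0.327 in WT FAEE-SAP. It was 0.208 and 0 in cKO saline and 0.127 and 0 in cKO FAEE-SAP. Both WT FAEE-SAP libraries lay above the other 6. The reads behind these values, worked out from RPKM, exonic length, and library total, were 4 and 5 in WT saline, 45 and 34 in WT FAEE-SAP, 8 and 0 in cKO saline, and 6 and 0 in cKO FAEE-SAP. *Tnf* passed the minimum for testing only through WT FAEE-SAP, where it was high, so its tests are given as a description and support nothing. The log2 change with FAEE-SAP in WT was 1.36 (SE 0.35), with a limma Benjamini-Hochberg adjusted p of 0.0708. With FAEE-SAP, the log2 difference of cKO from WT was -2.13 (SE 0.58), with an adjusted p of 0.148 from limma. The SE is that of a pair of cKO libraries of which 1 held no read of *Tnf*, and the size depends on the added 0.1. Without cKO FAEE-SAP replicate 1, the limma adjusted p was 0.0357, but that fit compares WT with a single cKO library that held no read of *Tnf*, takes the spread from the WT pair and limma's prior, and its size is set by the added 0.1.

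*Tnf* lies on the minus strand at chr17:35199381-35202007 of GRCm38. The 250 bases before its start site, chr17:35202008-35202257 in RefSeq on GRCm38.p6, are shown because *Tnf* is the ligand of the pathway. The capitals mark the motif TATAAA, whose first base is at -29 from the start site, and which was found in 13.6% of 32851 mouse promoter windows that reach from 250 bases before to 50 after a start site.
Tnf: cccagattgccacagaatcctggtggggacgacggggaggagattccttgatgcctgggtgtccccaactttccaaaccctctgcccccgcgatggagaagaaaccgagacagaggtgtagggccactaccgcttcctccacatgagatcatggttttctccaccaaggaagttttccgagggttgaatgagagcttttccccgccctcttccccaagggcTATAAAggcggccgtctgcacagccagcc

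*Tnfrsf1a*, the gene of TNFR1, had the highest level of the 10 in all 4 groups and the clearest change. Its scaled RPKM was 5.75 and 4.74 in WT saline and rose to 16.1 and 20.9 in WT FAEE-SAP. It was 4.84 and 6.36 in cKO saline and 6.84 and 7.14 in cKO FAEE-SAP. Every WT FAEE-SAP library was above every other library, and the cKO FAEE-SAP libraries were above the cKO saline libraries by a narrow margin. The change in WT was 3.46-fold (95% CI 2.39 to 5.01, limma adjusted p = 0.0117). It was the 1 gene called in WT of the 7 members that passed the minimum for testing in every comparison, and none of the other 3 was called, where 6.93% of the 10894 genes tested were called. In cKO the change was 1.28-fold (95% CI 0.885 to 1.85, limma adjusted p = 0.607). With FAEE-SAP, the log2 difference of cKO from WT was -1.39 (SE 0.21), and its limma adjusted p of 0.0516 missed the threshold. It was called with a minimum of 2 RPKM (limma adjusted p = 0.0388) and with all 8 libraries in 1 model (limma adjusted p = 0.0267). It was not called with quantile normalization, scaling by the trimmed mean of log ratios, or no minimum (limma adjusted p = 0.153). Nor was it called with 1 or 0.01 as the added value, without limma's trend, or in a weighted model on reads. The sums of the neutrophil markers had the same order of groups, WT FAEE-SAP, then cKO FAEE-SAP, then saline, and their part in this gene's level was not tested. The test of the difference between the genotypes' responses gave a log2 value of -1.47 (SE 0.30), with a limma adjusted p of 0.166, so the responses were not shown to differ once all 11133 genes were allowed for. Between the saline groups the log2 difference was 0.06 (95% CI -0.48 to 0.60). Without WT FAEE-SAP replicate 2, the estimate in WT was 1.65 on the log2 scale and was no longer called (limma adjusted p = 0.0819), in a fit with a single WT FAEE-SAP library, where the spread comes from the saline pair and limma's prior.

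The gene lies on the plus strand at chr6:125349362-125362484 of GRCm38. The 250 bases before its RefSeq start site, chr6:125349473-125349722 on GRCm38.p6, are shown as those of the called member. The capitals mark TTCNNNGAA, the spaced palindrome that STAT factors bind, whose first base is at -244 from the start site.
Tnfrsf1a: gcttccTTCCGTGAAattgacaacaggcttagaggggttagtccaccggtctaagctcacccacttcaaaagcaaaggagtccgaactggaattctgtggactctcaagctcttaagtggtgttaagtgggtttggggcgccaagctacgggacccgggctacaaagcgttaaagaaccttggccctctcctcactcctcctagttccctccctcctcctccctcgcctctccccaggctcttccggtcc

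The same spaced palindrome was found in the windows of 4 of the 10 members and in 8.30% of all 32851 windows. These members were *Tnfrsf1a*, *Tnfrsf1b*, *Fas*, and *Ripk1*, and the other matches are printed with their neighboring bases so that they can be compared. *Ripk1* has a second RefSeq start site, and both of its matches lie there. The window of *Tnfrsf1b* is chr4:145247033-145247061 on the minus strand, that of *Fas* chr19:34290556-34290584 on the plus strand, and those of *Ripk1* chr13:34002756-34002784 and chr13:34002853-34002881 on the plus strand, all on GRCm38.p6.
Tnfrsf1b: agcgcattcaTTCCCGGAAgagatgctgg
Fas: tcaaagcgatTTCTGGGAAgacctgaata
Ripk1, first match: agaagctggtTTCCCGGAAggggcggagg
Ripk1, second match: acttcaaacgTTCCCGGAAatcgaaaagc
The matches of *Tnfrsf1b* and *Ripk1* have the same 9 bases. The core of the interferon-stimulated element, GAAA and a second GAAA with any pair of bases between them on either strand, was in the windows of 3 members, *Tnfrsf1b*, *Ripk1*, and *Cflar*, and in 3.44% of all windows. The second match of *Ripk1* overlaps its copy of this core. The AP-1 motif TGANTCA was found for *Fas* alone of the 10, against 7.81% of windows, and the NF-kB consensus for none, against 4.51%. A match is a string of letters and says nothing of binding.

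**Figure D1:**
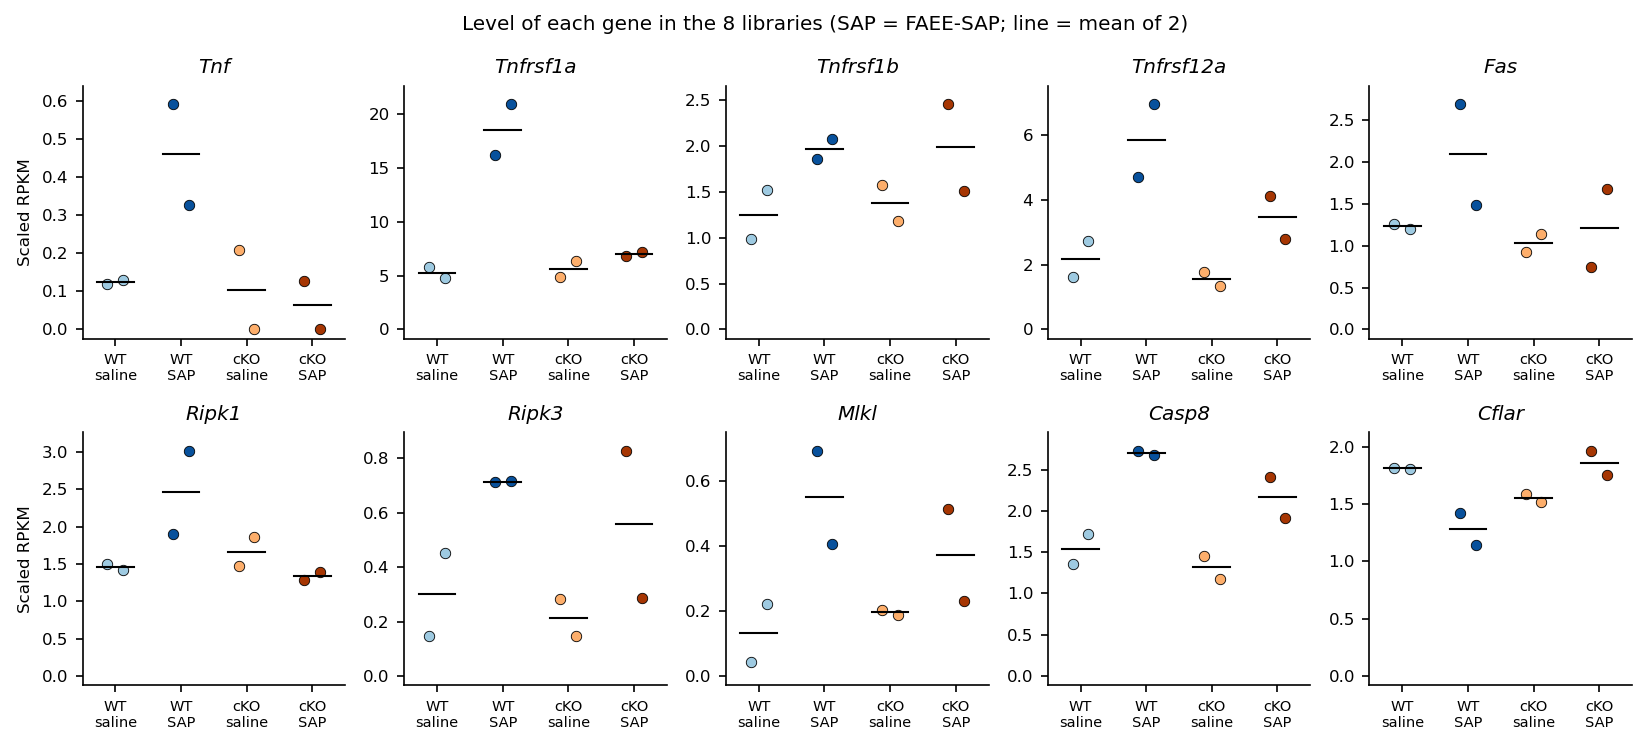
Scaled RPKM of the 10 genes in each library, with 1 panel per gene, its own linear axis that includes 0, and a line at the mean of the 2 libraries of a group. *Tnfrsf1a* stood at 16.1 and 20.9 in WT FAEE-SAP and at 4.74 to 7.14 in the other 6 libraries, whereas *Tnfrsf1b* overlapped between genotypes in both treatments.

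*Tnfrsf1b*, the gene of TNFR2, was at 0.989 and 1.52 in WT saline, 1.86 and 2.08 in WT FAEE-SAP, 1.58 and 1.18 in cKO saline, and 2.46 and 1.51 in cKO FAEE-SAP. The libraries were higher with FAEE-SAP in WT without overlap and overlapped in cKO. Its log2 change was 0.64 (SE 0.27, limma adjusted p = 0.193) in WT and 0.49 (SE 0.31, limma adjusted p = 0.631) in cKO. With FAEE-SAP the genotypes differed by -0.04 on the log2 scale, with a 95% CI of -0.75 to 0.68 that allows a change of this size in either direction. The ratio of *Tnfrsf1a* to *Tnfrsf1b* within a library is not changed by a scaling that uses a single factor per library. It was 5.82 and 3.13 in WT saline, 8.69 and 10.1 in WT FAEE-SAP, 3.07 and 5.39 in cKO saline, and 2.78 and 4.73 in cKO FAEE-SAP. The ratio was thus higher in both WT FAEE-SAP libraries than in the other 6, and the cKO groups overlapped.

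*Tnfrsf12a* encodes Fn14, the receptor of the cytokine TWEAK, which is induced in injured epithelium. Its scaled RPKM was 1.61 and 2.72 in WT saline, 4.72 and 6.96 in WT FAEE-SAP, 1.77 and 1.34 in cKO saline, and 4.13 and 2.79 in cKO FAEE-SAP. In both genotypes all FAEE-SAP libraries were above the saline libraries. The log2 change was 1.41 (SE 0.32, limma adjusted p = 0.0569) in WT and 1.11 (SE 0.28, limma adjusted p = 0.426) in cKO, so neither was called. Its difference between the genotypes' responses was -0.32 on the log2 scale, with a 95% CI of -1.42 to 0.78. Of the 7 members tested in cKO, it had the largest estimate there. The gene of TWEAK, *Tnfsf12*, was at 1.15 and 1.03 in WT saline, 2.43 and 1.61 in WT FAEE-SAP, 1.15 and 1.45 in cKO saline, and 2.10 and 1.97 in cKO FAEE-SAP, and was called in no comparison.

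*Fas*, the gene of a death receptor that recruits caspase-8, was at 1.26 and 1.20 in WT saline, 2.69 and 1.49 in WT FAEE-SAP, 0.924 and 1.14 in cKO saline, and 0.750 and 1.68 in cKO FAEE-SAP. The libraries of WT FAEE-SAP differed from each other by more than the lower one differed from WT saline. Its log2 change was 0.67 (SE 0.32, limma adjusted p = 0.241) in WT and 0.15 (SE 0.38, limma adjusted p = 0.915) in cKO. In cKO the saline and FAEE-SAP libraries overlapped. Its ligand gene *Fasl* stayed at or below 0.074 in all 8 libraries.

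*Ripk1* encodes the kinase that stands at the branch between survival and death. It was at 1.50 and 1.42 in WT saline, 1.90 and 3.02 in WT FAEE-SAP, 1.47 and 1.86 in cKO saline, and 1.29 and 1.39 in cKO FAEE-SAP. The FAEE-SAP libraries were above saline in WT and below saline in cKO, without overlap in either genotype. The log2 change was 0.68 (SE 0.28, limma adjusted p = 0.182) in WT and -0.25 (SE 0.19, limma adjusted p = 0.679) in cKO. On the deposited scale the value in cKO was 0.32, of the other sign. The difference between the responses was -0.97 (SE 0.35, limma adjusted p = 0.341). *Ripk1* lies at chr13:34002363-34037147 of GRCm38 and shares 511 exonic bases with the processed pseudogene *Gm17084* on its strand and 241 with *Serpinb6a* on the other strand. How the authors assigned reads there is not given in the sources used here, so its values are uncertain by that share.

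*Ripk3*, the kinase gene of necroptosis, had a low level. It was at 0.148 and 0.452 in WT saline, 0.713 and 0.715 in WT FAEE-SAP, 0.282 and 0.146 in cKO saline, and 0.829 and 0.287 in cKO FAEE-SAP, on 7 to 104 reads. The cKO FAEE-SAP libraries differed from each other more than 2-fold, and 1 of them exceeded both WT FAEE-SAP libraries. The log2 change in WT was 1.19 (SE 0.43, limma adjusted p = 0.149), and with FAEE-SAP cKO differed from WT by -0.48 (SE 0.46, limma adjusted p = 0.617). Like *Tnf*, *Ripk3* passed the minimum for testing only through WT FAEE-SAP, so these tests support nothing.

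*Mlkl*, the gene of the protein that breaks the membrane, was at 0.042 and 0.220 in WT saline, 0.692 and 0.404 in WT FAEE-SAP, 0.204 and 0.187 in cKO saline, and 0.511 and 0.230 in cKO FAEE-SAP. These values rest on 2 and 12, 74 and 59, 11 and 9, and 34 and 16 reads. The FAEE-SAP libraries were above the saline libraries of their own genotype, in cKO with 0.230 as the lower of one pair and 0.204 as the higher of the other. Its log2 change in WT was 1.67 (SE 0.51, limma adjusted p = 0.102). With FAEE-SAP the genotypes overlapped, and the log2 difference of cKO from WT was -0.53 (SE 0.43, limma adjusted p = 0.547). *Mlkl* also passed the minimum for testing only through WT FAEE-SAP, so these tests support nothing.

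On GRCm38, *Tnfrsf1b* lies at chr4:145213463-145246870, *Tnfrsf12a* at chr17:23675445-23677468, *Ripk3* at chr14:55784995-55788865, and *Mlkl* at chr8:111311797-111338177, all on the minus strand, and *Fas* at chr19:34290666-34327772 on the plus strand.

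*Tnf*, *Ripk3*, and *Mlkl* reached the minimum of 0.5 RPKM in 2 libraries through WT FAEE-SAP, where they were high, and were tested only where that group entered. A gene that enters this way is likely to differ, so shares set beside those of all genes are given over the other 7 members. With no minimum, their log2 changes in WT were 1.40, 1.24, and 1.72, and in cKO -0.20, 0.91, and 0.57, in the order *Tnf*, *Ripk3*, and *Mlkl*, and none was called.

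*Casp8*, the initiator caspase of the death receptors, was at 1.36 and 1.72 in WT saline, 2.73 and 2.68 in WT FAEE-SAP, 1.46 and 1.18 in cKO saline, and 2.42 and 1.91 in cKO FAEE-SAP. Both genotypes had higher values with FAEE-SAP in all libraries. The log2 change was 0.79 (SE 0.22, limma adjusted p = 0.0853) in WT and 0.69 (SE 0.22, limma adjusted p = 0.469) in cKO. The difference between these responses was -0.11, with a 95% CI of -0.81 to 0.58 on the log2 scale.

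*Cflar*, the gene of the caspase-8 inhibitor c-FLIP, was at 1.81 and 1.81 in WT saline, 1.42 and 1.14 in WT FAEE-SAP, 1.58 and 1.52 in cKO saline, and 1.97 and 1.75 in cKO FAEE-SAP. It was the 1 member with a lower scaled level with FAEE-SAP in WT, and in cKO its level was higher with FAEE-SAP, in both cases without overlap. The log2 change was -0.49 (SE 0.22, limma adjusted p = 0.227) in WT and 0.27 (SE 0.18, limma adjusted p = 0.644) in cKO. The difference between the responses was 0.72 (SE 0.25, limma adjusted p = 0.337). As deposited, the value in WT was 0.77, where the median of all genes was 1.24, so *Cflar* was below the median gene on both scales while its sign depended on the scaling.

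*Casp8* and *Cflar* both lie on the plus strand of chromosome 1, at chr1:58795374-58847503 and chr1:58711508-58758884 of GRCm38. Their ratio within a library was 0.748 and 0.955 in WT saline, 1.92 and 2.35 in WT FAEE-SAP, 0.921 and 0.775 in cKO saline, and 1.23 and 1.09 in cKO FAEE-SAP. The mean log2 ratio was higher with FAEE-SAP than with saline by 1.33 in WT and by 0.46 in cKO. The 4 groups fell in 3 ranges, with both saline groups together, cKO FAEE-SAP above them, and WT FAEE-SAP highest. The ratio of *Tnfrsf1a* to *Ripk1* had the same order, with 3.84 and 3.35 in WT saline, 8.50 and 6.92 in WT FAEE-SAP, 3.29 and 3.42 in cKO saline, and 5.32 and 5.12 in cKO FAEE-SAP. In all, 8 ratios between members were computed, chosen with the levels known, and none has a test. In 3 of them, those given above, both WT FAEE-SAP libraries were above the other 6, and in the other 5 they were not. *Mlkl* to *Casp8* was 0.253 and 0.151 in WT FAEE-SAP, against 0.0310 to 0.211 in the other libraries. *Mlkl* to *Ripk3* was 0.971 and 0.565, against 0.284 to 1.28. *Ripk3* to *Ripk1* was 0.375 and 0.237, against 0.0788 to 0.644, and *Ripk3* to *Casp8* was 0.261 and 0.266, against 0.109 to 0.343. The 5 ratios that overlapped each include *Tnf*, *Ripk3*, or *Mlkl*. *Tnf* to *Tnfrsf1a* was 0.0367 and 0.0157, against 0 to 0.0430.

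**Figure D2:**
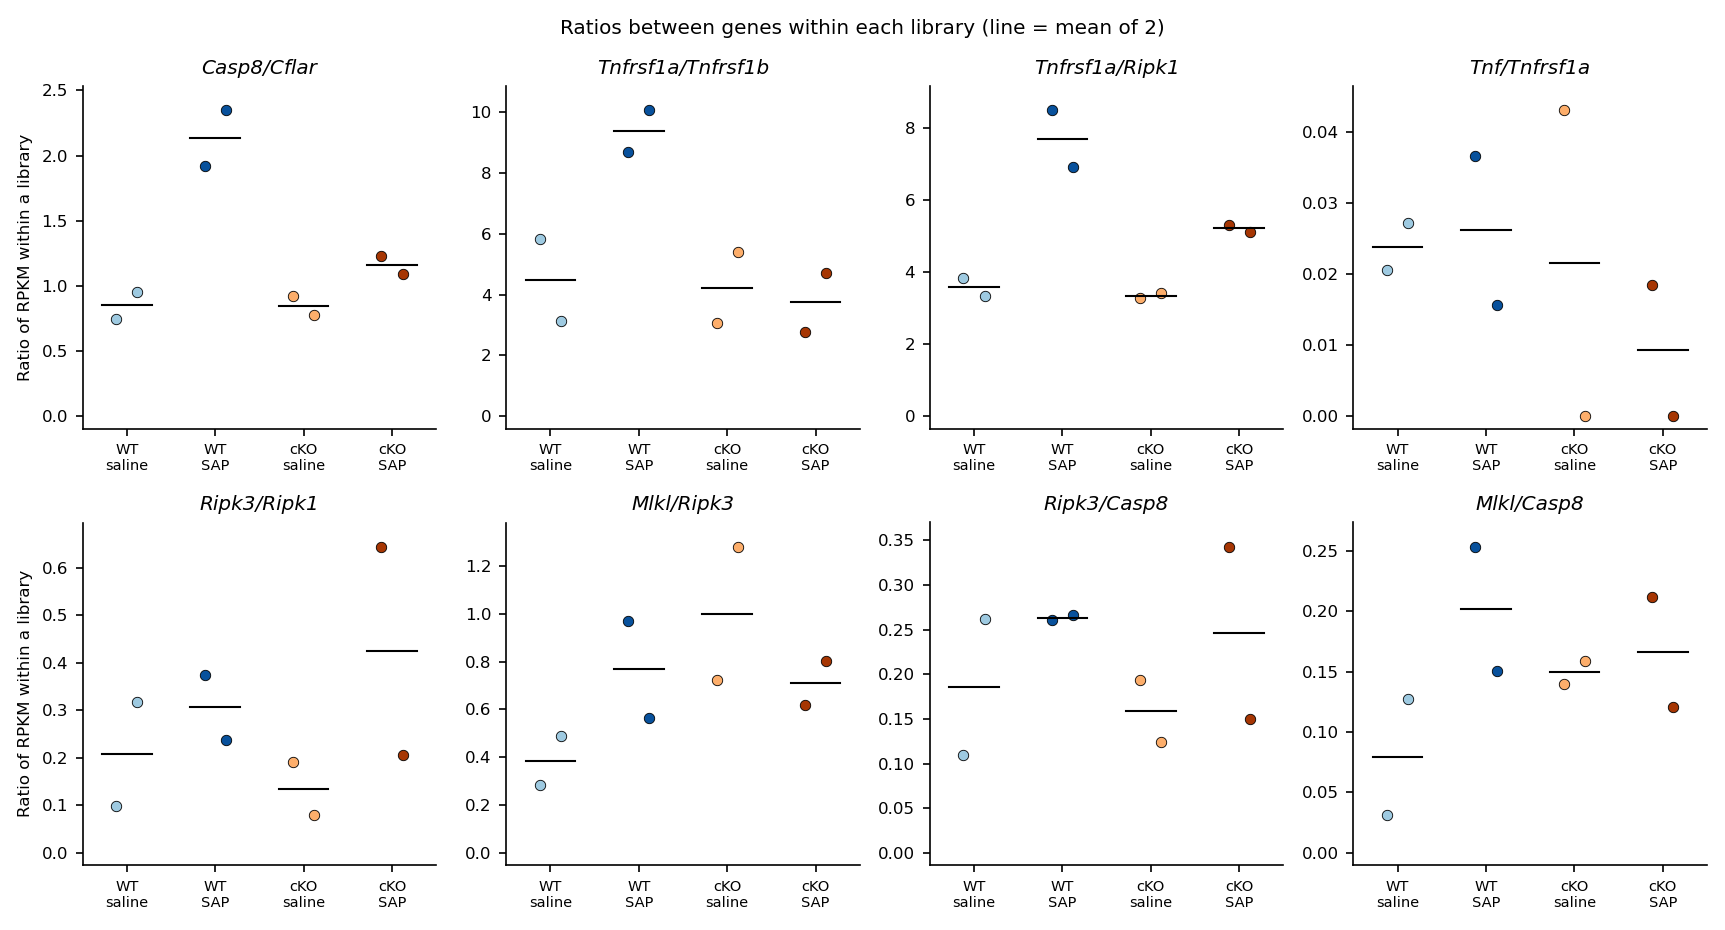
Ratio of the RPKM of 2 members within each of the 8 libraries, for all 8 ratios computed, on linear axes, with a line at the mean of each group. In 3 panels both WT FAEE-SAP libraries were above the other 6, for *Casp8* to *Cflar* at 1.92 and 2.35 against 0.748 to 1.23, and in the other 5 panels they overlapped with them.

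The 7 members that passed the minimum in every comparison were *Tnfrsf1a*, *Tnfrsf1b*, *Tnfrsf12a*, *Fas*, *Ripk1*, *Casp8*, and *Cflar*. With FAEE-SAP in WT, 6 of them were higher and 1 was lower, and their libraries did not overlap, where 29.3% of all genes tested were higher and 29.5% lower without overlap. The members were chosen with earlier results of these data known, so shares set beside those of all genes describe them and are not support. The median log2 change of the 7 in WT was 0.68, beside 0.02 for all genes. An unadjusted limma p under 0.05 was found for 3 of 7 (42.9%), beside 27.7% of all genes. In cKO their median was 0.36, beside -0.01 for all genes, and 2 of 7 (28.6%) had an unadjusted p under 0.05, beside 9.42%. In cKO the libraries did not overlap for 4 higher genes and 1 lower gene of the 7, beside 21.8% of genes higher and 21.4% lower. None of the 7 was called in cKO, where 0.0531% of 9423 genes were called. The comparisons of FAEE-SAP with saline in WT and in cKO share no library.

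**Figure D3:**
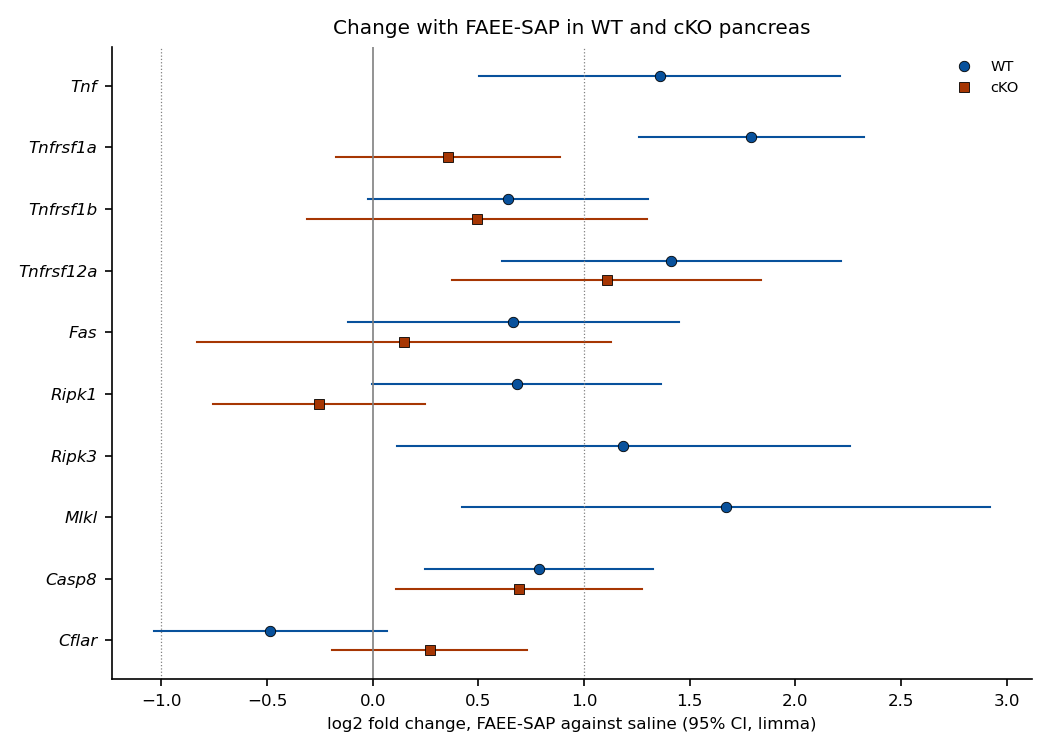
Log2 fold change with FAEE-SAP in WT (circles) and cKO (squares) with 95% CI from limma, with dotted lines at a 2-fold change. *Tnfrsf1a* was at 1.79 in WT and 0.36 in cKO, *Tnfrsf12a* and *Casp8* had close estimates in both genotypes, and *Tnf*, *Ripk3*, and *Mlkl* have no cKO value because they did not pass the minimum there.

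Between the genotypes with FAEE-SAP, none of the 7 or of *Tnf*, *Ripk3*, and *Mlkl* was called, where 1.27% of 11008 genes were. Of the 7 members in every fit, 3 (42.9%) had an unadjusted p under 0.05 in limma, beside 19.5% of all genes, and an added weighted model on reads called none of the 7, beside 0.989% of all genes. Of the 7, 6 were lower in cKO and 1 was higher, with a median of -0.75 beside -0.01 for all genes. Their libraries did not overlap for 4 lower genes and 1 higher gene, beside 25.7% of genes lower and 26.1% higher. *Tnfrsf1b* and *Fas* were the 2 of the 7 that overlapped. Under saline none of the 7 was called and none had an unadjusted p under 0.05, beside 0% called and 2.15% under 0.05 of 8715 genes. Neither the 7 nor the other 3 included a gene called for the difference between responses, where 0.0719% of 11133 genes were, and *Tnfrsf1a*, *Ripk1*, and *Cflar* had an unadjusted p under 0.05, as did 12.6% of all genes. The comparison of genotypes with FAEE-SAP shares its WT libraries with the change in WT, so the same high WT values enter both.

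**Figure D4:**
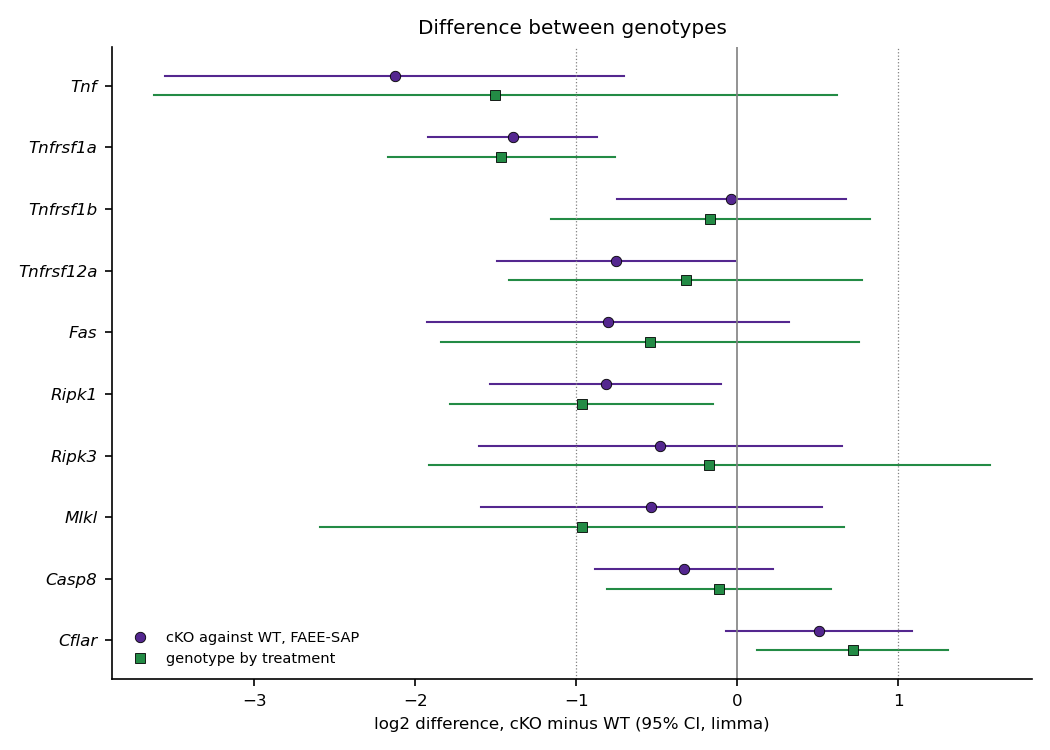
Log2 difference of cKO from WT with FAEE-SAP (circles) and the difference between the genotypes' responses (squares), with 95% CI from limma and dotted lines at 2-fold. *Tnfrsf1a* was at -1.39 and -1.47 with intervals that did not reach 0, and *Cflar* at 0.51 and 0.72 was the 1 gene above 0 in both.

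The scale on which libraries are compared mattered for these 10 genes. In the values as deposited the median of all genes was 1.24 higher with FAEE-SAP in WT on the log2 scale, 0.57 higher in cKO, and -0.91 in cKO against WT with FAEE-SAP. Of the 7 members in every fit, 6 were then called in WT, beside 66.7% of all genes, and 5 between the genotypes with FAEE-SAP, beside 40.2% of all genes. With quantile normalization, 1 of the 7 was called in WT, beside 5.89% of all genes, and 0 between the genotypes, beside 0.727%. With a scaling by the trimmed mean of log ratios, the counts were 1, beside 6.77%, and 0, beside 1.31%.

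**Figure D5:**
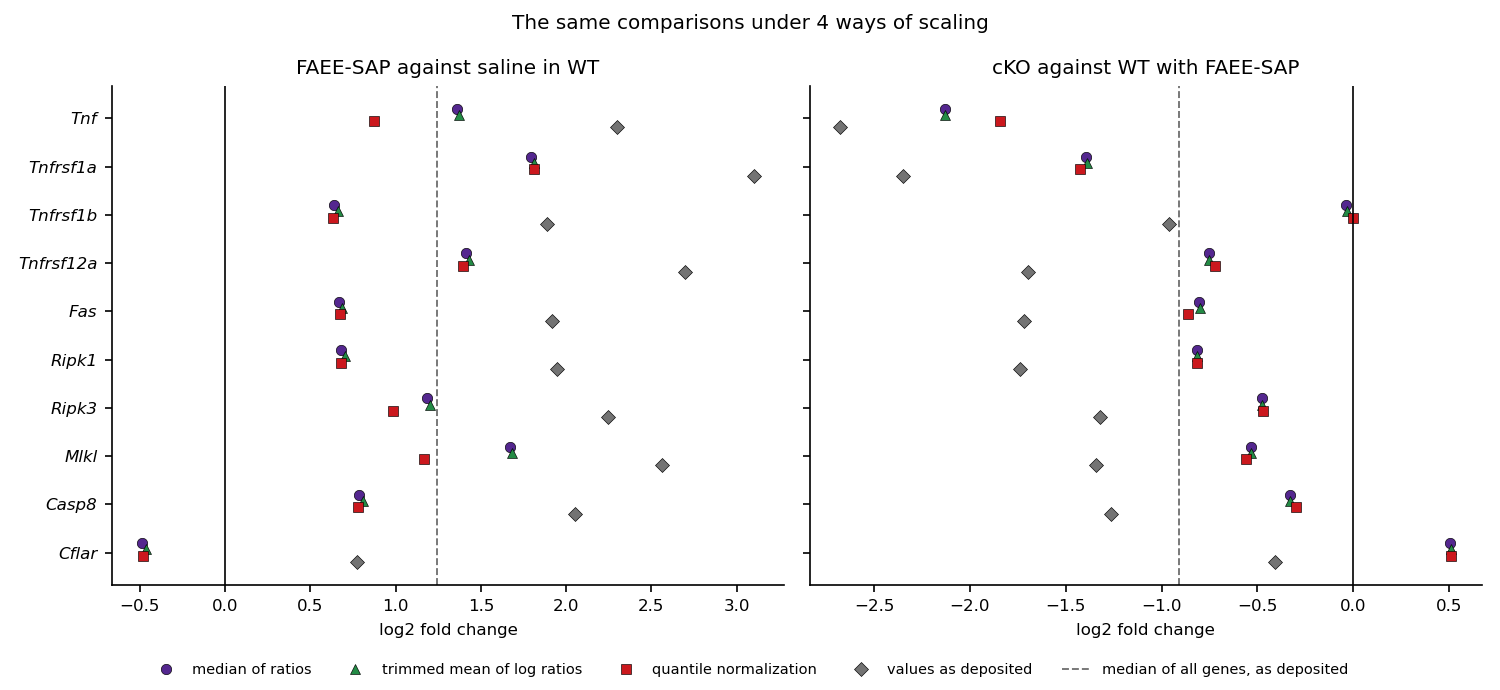
Log2 fold change of each of the 10 genes under 4 ways of scaling, for FAEE-SAP against saline in WT (left) and cKO against WT with FAEE-SAP (right), with a dashed line at the median of all genes in the values as deposited. That median was 1.24 on the left and -0.91 on the right. *Cflar* as deposited was at 0.77 and -0.41, short of the median in both panels, and there its sign differed from that of its scaled values.

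Around the members, 99 other genes of the pathway were listed by role. They too were chosen with earlier results of these data known, so their shares are a description and not support. Counts are given for the 51 of them that passed the minimum in every comparison, since a gene that passed through WT FAEE-SAP alone had to be high there. Of the 51, 43 were higher and 8 lower with FAEE-SAP in WT, beside 47.1% higher and 52.9% lower of the 8584 genes that passed in every comparison, and 6 (11.8%) were called, beside 6.86%. By list, the calls were 3 of 20 genes of complex I, 1 of 8 partners of complex II and necroptosis, 1 of 12 genes of apoptosis execution, 1 of 6 genes of TNF shedding, 0 of 3 TNF family ligands, and 0 of 2 TNF family receptors. In cKO, 36 were higher and 15 lower, beside 45.2% higher and 54.8% lower of the 8584, and none was called, beside 0.0466%. Between the genotypes with FAEE-SAP, 38 of the 51 were lower and 13 higher in cKO, beside 49.3% lower and 50.7% higher, and 1 (1.96%), *Tnip1*, was called, beside 1.21%. For the difference between the responses, 39 of the 51 were lower and 12 higher, beside 49.5% lower and 50.5% higher. Of these, 0 were called, beside 0.0699%. Between the saline groups, 28 were lower and 23 higher, beside 47.5% lower and 52.5% higher, and 0 were called, beside 0%.

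Of the 51, *Rhbdf2* had the largest called change. *Rhbdf2* encodes iRhom2, which the TNF sheddase ADAM17 needs for its maturation. It was at 1.05 and 0.878 in WT saline, 3.29 and 6.45 in WT FAEE-SAP, 0.604 and 0.995 in cKO saline, and 1.02 and 1.37 in cKO FAEE-SAP, a log2 change of 2.17 in WT. The gene of ADAM17 itself, *Adam17*, was not called, with a log2 value of 0.52 in WT.

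*Bcl2l1* encodes the survival protein BCL-XL. It was at 2.78 and 1.82 in WT saline, 5.53 and 9.97 in WT FAEE-SAP, 1.87 and 5.02 in cKO saline, and 1.50 and 5.44 in cKO FAEE-SAP, and its log2 change in WT was 1.68. The cKO libraries of each treatment differed more than 2-fold from each other. *Tnip1* encodes ABIN1, a ubiquitin-binding restraint on complex I. It was at 1.60 and 2.11 in WT saline, 6.63 and 4.88 in WT FAEE-SAP, 1.27 and 1.29 in cKO saline, and 1.98 and 1.59 in cKO FAEE-SAP. Its log2 value was 1.58 in WT and -1.65 between the genotypes with FAEE-SAP, where its limma adjusted p was 0.0496. The other 3 of the 51 called in WT, named after their values were seen, were *Mapkapk2* at 1.51, *Chmp4b* at 1.28, and *Rnf31* at 1.27 on the log2 scale. They encode a kinase that phosphorylates RIPK1, a membrane repair subunit, and a ubiquitin ligase of complex I.

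*Faim2*, *Eda2r*, and *Tnfsf9* passed the minimum only through WT FAEE-SAP, where they were high, so their levels are given as a description and their tests support nothing. *Faim2*, which encodes an inhibitor of Fas-induced death, was at 0.011 and 0.056 in WT saline, 1.32 and 0.618 in WT FAEE-SAP, 0.076 and 0.042 in cKO saline, and 0.276 and 0.154 in cKO FAEE-SAP. *Eda2r*, a TNF family receptor gene, was at 0.238 and 0.129 in WT saline and 1.35 and 0.838 in WT FAEE-SAP, and at 0.088 to 0.163 in the 4 cKO libraries. *Tnfsf9*, the gene of 4-1BB ligand, was at 0.079 and 0.034 in WT saline and 0.368 and 0.321 in WT FAEE-SAP. It was at 0.139 and 0.156 in cKO saline and 0.310 and 0.243 in cKO FAEE-SAP.

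Across the 8 libraries, the genes whose log2 level followed a member most closely among 11133 tested genes were found by Pearson's r. For *Tnfrsf1a* they were *Exoc6b* (r = 0.991), *Myd88* (r = 0.989), and *Litaf* (r = 0.988). For *Tnf* they were *Nfe2l3* (r = 0.931), *Cbx1* (r = 0.929), and *Ctsk* (r = 0.929). For *Ripk3* they were *Itga9* (r = 0.992), *Mesdc2* (r = 0.987), and *Limk1* (r = 0.987), and for *Mlkl* *Larp7* (r = 0.968), *Tspo* (r = 0.966), and *Dok2* (r = 0.964). Among the members themselves, r ranged from -0.959 to 0.973 over 45 pairs, with a median of 0.491. The 8 points share 4 groups and their scaling, so these values describe a pattern of 8 libraries and carry no p.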

How the data were processed

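RNA-Seq of pancreas from 8 mice was used, with 2 libraries in each of 4 groups read from the labels. The authors deposited RPKM per gene in each library. Their methods name a directional kit, paired-end reads, fastp, and CLC Genomics Workbench with Ensembl GRCm38.p6, and the computation of RPKM is not given in the sources used here. No read counts were used.

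For each comparison, libraries were scaled by the median of ratios, a gene entered where 2 libraries reached 0.5 RPKM, and log2(scaled RPKM + 0.1) was tested with limma 3.58.1 (R 4.3.3) with a trend, over all genes, at a Benjamini-Hochberg adjusted p under 0.05 and at least 2-fold. This added value understates changes of low genes. The test was also run on simulated data, with changes larger than most of those of the members. How often it finds changes of their size was not examined. Levels printed were scaled over all 8 libraries. Reads were worked out from library totals (22.9 to 37.7 M) at which 84.1% to 85.5% of values under 20 reads were whole within 0.1, with exon lengths of GENCODE vM21, to which 46325 symbols (95.1%) matched. They sum to 100.3% to 105.7% of the totals and are approximate. All 10 members matched RefSeq promoters (11 start sites, GRCm38.p6).

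The members and gene lists were chosen with earlier results of these data known. Named are all 10 members, up to 5 called listed genes with the largest change and no overlap per comparison, and the 3 genes most like *Tnf*, *Tnfrsf1a*, *Ripk3*, and *Mlkl*. *Tnfsf12*, *Fasl*, and *Adam17* were added as partners of members or of a named gene. Alternatives were the deposited values with no scaling, quantile normalization, scaling by the trimmed mean of log ratios, no filter or a minimum of 2 RPKM, added values of 1 and 0.01, no trend, all 8 libraries in 1 model, a replicate block, other thresholds, and each library left out. A weighted model on the reads and a crossed block were added after seeing the data.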

Additional observations from a re-analysis of the deposited data

Results flagged for a closer look

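*Ripk1* and *Cflar* drew attention because every FAEE-SAP library moved one way in WT and the other way in cKO. For *Ripk1*, both WT libraries were above saline and both cKO libraries below it, and the difference between the responses was -0.97 on the log2 scale, with a limma Benjamini-Hochberg adjusted p of 0.341. For *Cflar*, both WT libraries were below saline and both cKO libraries above it, and the difference was 0.72, with a limma adjusted p of 0.337. Neither passed the threshold. As deposited, *Ripk1* in cKO was 0.32 and *Cflar* in WT 0.77, so on that scale neither gene had opposite directions.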

How the results depend on the processing

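With 2 libraries per group, single libraries moved the calls. A group left with 1 library was assumed to vary like the others in the fit. Counts of members called include *Tnf*, *Ripk3*, and *Mlkl*, and the share of all genes called under the same setting follows each. In WT, 1 member (6.93%) became 9 as deposited (6 of the 7 in every comparison, 66.7%), 2 with all 8 libraries in 1 model (*Tnfrsf1a* and *Tnfrsf12a*, 7.48%), 5 at an unadjusted p under 0.05 with the 2-fold minimum (2 of the 7, 12.4%), and 0 to 4 without 1 library, 0 without WT FAEE-SAP replicate 2 (1.03%) and 4 without WT saline replicate 2 (2 of the 7, 4.56%). In cKO, 0 (0.0531%) became 1 (*Tnfrsf12a*, 2.97%) at an unadjusted p. Between the genotypes with FAEE-SAP, 0 (1.27%) became 7 as deposited (5 of the 7, 40.2%). The count became 1 (*Tnfrsf1a*) with a minimum of 2 RPKM (2.07%) or with all 8 libraries (2.65%). At an unadjusted p it became 2 (*Tnf* and *Tnfrsf1a*, 1 of the 7, 8.39%). For the difference between responses, 0 (0.0719%) became 2 as deposited (*Tnfrsf1a* and *Ripk1*, 7.11%) and 1 at an unadjusted p (7.02%). The labels tie a replicate number to no shared animal, litter, or day. Deviations of same-numbered libraries correlated across genes at 0.45 between the cKO groups and 0.313 with FAEE-SAP, and at -0.175 between the WT groups and -0.395 with saline, both of which include WT saline, so a pairing was neither shown nor excluded. The replicate block gave 2 calls in WT (*Tnfrsf1a* and *Tnfrsf12a*, 4.06%). It gave 2 between the genotypes with FAEE-SAP (*Tnf* and *Tnfrsf1a*, 1 of the 7, 5.16%). Crossed numbers of WT saline gave 2 in WT (1 of the 7, 7.55%) and 1 for the difference between responses (0.611%). The cause of these moves was not tested. Values that changed sign as deposited were *Cflar* (0.77 in WT, -0.41 between the genotypes with FAEE-SAP), *Ripk1* (0.32 in cKO, -0.11 with saline), *Tnfrsf1a* (-0.21 with saline), and *Tnfrsf1b* (-0.14 with saline), and with FAEE-SAP between the genotypes *Tnfrsf1b* was 0.00094 under quantile normalization and 0.019 with a minimum of 2 RPKM. Signs that turned without 1 library had ranges of -0.31 to 0.67 for *Fas* in cKO, -0.35 to 0.29 for *Tnfrsf1b* and -1.14 to 0.17 for *Ripk3* between the genotypes with FAEE-SAP, -0.14 to 0.25 for *Tnfrsf1a*, -0.20 to 0.40 for *Tnfrsf1b*, and -0.015 to 0.30 for *Ripk1* with saline, and, for the difference between responses, -0.49 to 0.16 for *Tnfrsf1b*, -0.68 to 0.034 for *Tnfrsf12a*, -0.79 to 0.45 for *Ripk3*, and -0.28 to 0.045 for *Casp8*. None of these sign changes was of a called value. Of the values of single members under the alternatives, 630 kept their direction and side of the threshold, 29 were newly past it, 27 changed sign, and 1 was no longer past it, *Tnfrsf1a* in WT without WT FAEE-SAP replicate 2.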
